A study of Mus musculus with 12 samples.

Results

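The cytosolic glutathione S-transferases of the alpha, mu and pi classes were followed in mouse liver through 10 genes: Gsta1, Gsta2, Gsta3 and Gsta4 (alpha), Gstm1, Gstm2, Gstm3 and Gstm4 (mu), and Gstp1 and Gstp2 (pi). They are 10 of the 23284 genes in the deposited table, were chosen by their gene class, and all 10 passed the filter on low values. Every mouse lacked apolipoprotein A-I and apolipoprotein E (Apoa1-/- Apoe-/-, DKO), and the DKO/hA1 mice also carried the human APOA1 gene. Mice of either genotype were kept for 22 weeks on laboratory chow or on a Western diet rich in fat. The DKO mice gave 4 livers on chow and 3 on Western diet, the DKO/hA1 mice gave 2 on chow and 3 on Western diet, and there was no wild-type group. The promoter of the transgene, the age and the sex of the mice are not given in the sources used here, nor is it stated whether the samples of a group came from separate litters or cages, so p-values measure the spread between these samples.

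Glutathione S-transferases join the tripeptide glutathione to reactive electrophiles, which makes drugs, epoxides and products of lipid peroxidation more soluble and ready for export. The enzymes work as dimers formed within a class. In the liver many alpha and mu genes are known targets of the transcription factor NRF2, which binds antioxidant response elements, and several also respond to the nuclear receptors that sense foreign compounds and bile acids.

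Levels are FPKM, fragments scaled to transcript length and library size, so genes can be compared with each other. FPKM totals ran from 379689 to 578927 per library, read numbers are not given in the sources used here, and relative depth read from the steps between low values was only a rough estimate, 0.514 to 1.32 of that of DKO chow replicate 1. Apoa1, the targeted gene, was at 30.4 to 77.4 FPKM in the 7 DKO libraries and at 122 to 239.8 FPKM in the 5 DKO/hA1 libraries, and the table does not separate human from mouse transcripts. Apoe, targeted in all mice, was at 12.9 to 89.8 FPKM, a signal that is not assigned to a source here. The 8 hepatocyte markers summed to 11390.4 to 24764 FPKM and none was at 0. A pair of Western diet libraries stood apart. The neutrophil markers summed to 4218 FPKM in replicate 2 of the DKO and to 4476 FPKM in replicate 3 of the DKO/hA1 mice, against 27.9 to 1358 FPKM in the other 10 libraries, and the members' diet differences averaged over genotypes are also given without these 2. In whole liver, fewer cells of a type and less RNA per cell cannot be told apart.

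Of the 10 genes, 3 were called lower on Western diet when both genotypes were averaged: Gsta1, Gsta2 and Gstm3. Of all tested genes 1.2% were called lower. Gsta1 and Gsta2 are near-identical, so their separate values are uncertain. No member was called with the code number of the labels as a random block, where 0.338% of tested genes passed. The Gstm3 call was the least stable, lost in 9 of 12 fits with 1 library left out. Gsta2 went from 20.1 to 36.3 FPKM on chow to 0.642 to 9.47 FPKM on Western diet, with no overlap. Such a separation towards lower values was seen in 0.883% of tested genes. The abundant Gsta3 and the mu gene Gstm2 had much smaller differences, so the balance between class members shifted. No member passed for genotype, but the ratio of Gstp1 to Gstp2 separated the genotypes in every library. Ratios were added after seeing the data, and this difference was small (log2 difference -0.13, exact permutation adjusted p = 0.0433). Whether it lies in transcript levels or in how fragments of these near-identical transcripts were divided was not tested.

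The members differed in abundance by a wide margin. By the mean over 12 libraries the order was Gstp1 (1739 FPKM), Gsta3 (881 FPKM), Gstm1 (544 FPKM), Gstp2 (289.7 FPKM), Gsta4 (43.5 FPKM), Gstm3 (35.1 FPKM), Gstm2 (30.8 FPKM), Gstm4 (28.9 FPKM), Gsta2 (16.2 FPKM) and Gsta1 (8.34 FPKM). The ranges of neighbours in that order overlapped at every step except between Gstp2 (91.7 to 443 FPKM) and Gsta4 (5.11 to 86.4 FPKM). Among the 11546 genes tested, Gstp1 ranked 31, Gsta3 ranked 64, Gstm1 ranked 100 and Gstp2 ranked 198 by mean FPKM. The pi pair held 46.0 to 67.0% of the summed FPKM of the 10 genes in each library, the alpha genes 20.9 to 36.1% and the mu genes 12.1 to 25.8%.

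**Figure D1:**
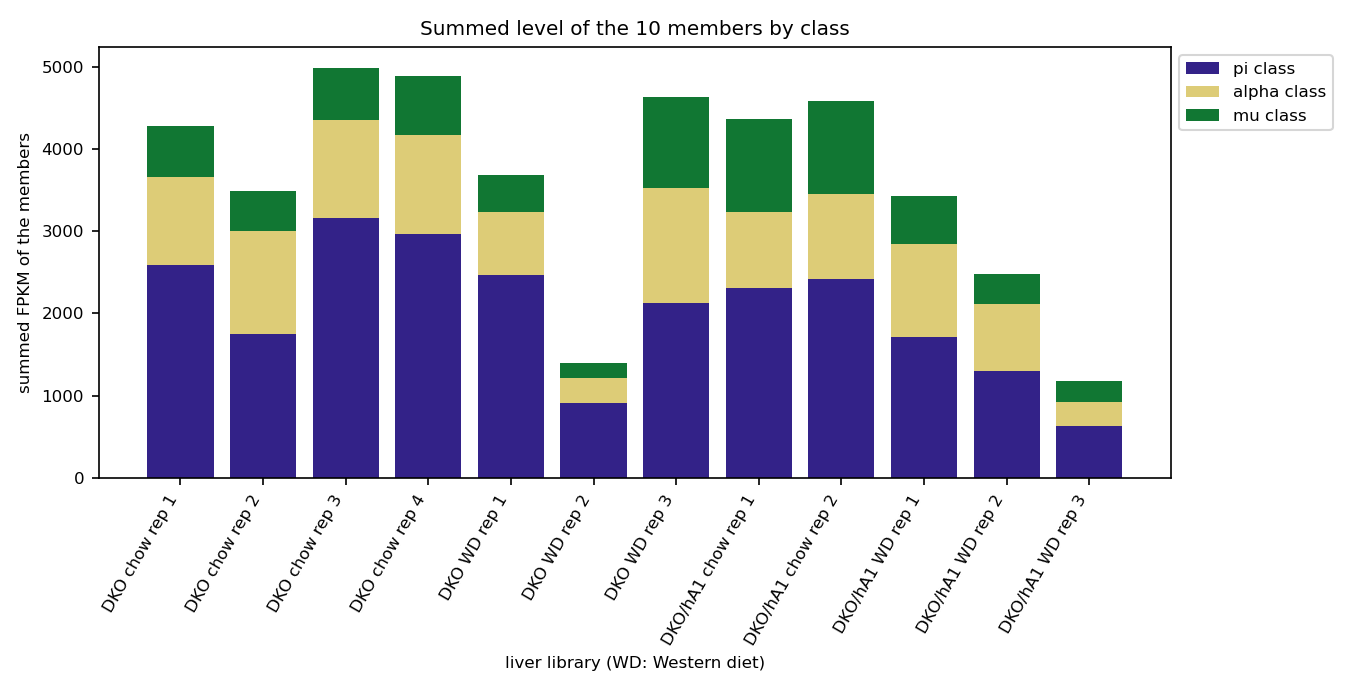
Summed FPKM of the 10 members in each of the 12 liver libraries, stacked by class (pi, alpha, mu). The lowest totals, 1175 and 1397 FPKM, are in the 2 Western diet libraries highest in neutrophil markers, and the other 10 libraries lie between 2481 and 4992 FPKM.

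The summed level of all 10 genes in DKO livers was 4411 ± 691 FPKM (SD, n = 4) on chow and 3237 ± 1664 FPKM (SD, n = 3) on Western diet. In DKO/hA1 livers it was 4474 ± 156 FPKM (SD, n = 2) on chow and 2362 ± 1133 FPKM (SD, n = 3) on Western diet. The Western diet libraries were the more scattered. These n apply to all group values below, in which ± stands for the SD. Beside a log2 fold change it stands for the SE.

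The genes lie in 4 places of the genome (build GRCm38.p6, which is mm10). Gsta4 (chr9:78191966-78209349, plus strand), Gsta1 (chr9:78230669-78242683, plus strand) and Gsta2 (chr9:78331018-78347192, minus strand) follow each other on chromosome 9, and Gsta3 (chr1:21240565-21265575, plus strand) lies apart on chromosome 1. Gstm3 (chr3:107963696-107969174), Gstm2 (chr3:107981702-107986420), Gstm1 (chr3:108012250-108017973) and Gstm4 (chr3:108030571-108045179) are all on the minus strand of chromosome 3. Gstp1 (chr19:4035411-4037912) and Gstp2 (chr19:4040288-4042221) are neighbours on the minus strand of chromosome 19, with 2375 bases between them.

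Members of a class can be hard to tell apart by short reads, which bears on every value of the closest pairs. The coding sequences of Gsta1 and Gsta2 were 97.9% identical, with 14 differing bases among 669 aligned, and those of Gstp1 and Gstp2 98.1% identical, with 12 differing bases among 633. Below are 90 coding bases of each (GENCODE M21; coding positions 578 to 667 for the alpha pair and 1 to 90 for the pi pair), shown because the marked letters are all that separates the 2 genes of a pair there; they need not separate a gene from other relatives, such as Gm3776 for Gsta1 or the pseudogene Gstp-ps for Gstp1. Capitals mark the 6 bases that differ within each pair.
Gsta1: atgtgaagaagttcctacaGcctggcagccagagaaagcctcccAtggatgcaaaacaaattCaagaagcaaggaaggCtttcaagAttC
Gsta2: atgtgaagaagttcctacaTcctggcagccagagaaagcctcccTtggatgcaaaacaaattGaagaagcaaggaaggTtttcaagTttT
Gstp1: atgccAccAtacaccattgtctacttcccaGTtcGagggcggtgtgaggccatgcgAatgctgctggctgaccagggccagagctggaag
Gstp2: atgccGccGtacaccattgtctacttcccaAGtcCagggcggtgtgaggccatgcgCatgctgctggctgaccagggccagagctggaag

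The share of 50-base windows of a transcript that also occur in another gene's transcript was 89.7% for Gsta1, 64.2% for Gsta2, 62.3% for Gstp1, 72.6% for Gstp2, 28.8% for Gstm3, 23.2% for Gstm1 and 9.36% for Gstm2. It was 0% for Gsta3, Gsta4 and Gstm4. Gsta1 shared most with Gm3776, a gene model of the alpha class (82.9% of windows), and 44.6% with Gsta2. How the authors' software divided such fragments decides the split between Gsta1, Gsta2 and Gm3776 and between Gstp1 and Gstp2, so their separate values are uncertain.

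The promoters of these same 4 genes are shown because each pair is near-identical in coding sequence. The stretches run from 150 bases before to 10 bases after the RefSeq start (GRCm38.p6), for Gsta1 at chr9:78230519-78230678 (plus strand), Gsta2 at chr9:78347136-78347295, Gstp1 at chr19:4037903-4038062 and Gstp2 at chr19:4042212-4042371 (all minus strand). Capitals mark matches to the AP-1 site TGANTCA or to the xenobiotic response element core GCGTG, each searched on both strands.
Gsta1: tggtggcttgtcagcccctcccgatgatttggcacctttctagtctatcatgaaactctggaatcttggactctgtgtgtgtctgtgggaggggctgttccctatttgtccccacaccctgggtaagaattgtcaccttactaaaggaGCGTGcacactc
Gsta2: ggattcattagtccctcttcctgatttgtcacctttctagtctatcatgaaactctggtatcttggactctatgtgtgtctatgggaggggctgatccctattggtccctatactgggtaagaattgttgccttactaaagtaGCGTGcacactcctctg
Gstp1: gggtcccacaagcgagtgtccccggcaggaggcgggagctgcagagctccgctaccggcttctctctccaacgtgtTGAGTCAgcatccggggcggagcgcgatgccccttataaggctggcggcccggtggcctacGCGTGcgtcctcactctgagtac
Gstp2: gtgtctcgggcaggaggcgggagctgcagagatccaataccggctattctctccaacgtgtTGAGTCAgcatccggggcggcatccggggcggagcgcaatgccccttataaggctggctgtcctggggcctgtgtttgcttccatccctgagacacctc

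In the full RefSeq windows of 300 bases (250 before to 50 after the start), available for 9 of the 10 genes, TGAGTCA stood at -74 to -68 in Gstp1 and at -89 to -83 in Gstp2. TGANTCA occurs in 7.81% of all 32851 promoters of that length. GCGTG occurs in 32.39% of them and was found in Gsta1, Gsta2, Gstm1 and Gstp1. The antioxidant response element core TGACNNNGC, present in 12.39% of promoters, was found in Gsta3 alone (TGACATTGC at -121 to -113). A match is a description of letters, not a shown binding site.

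**Figure D2:**
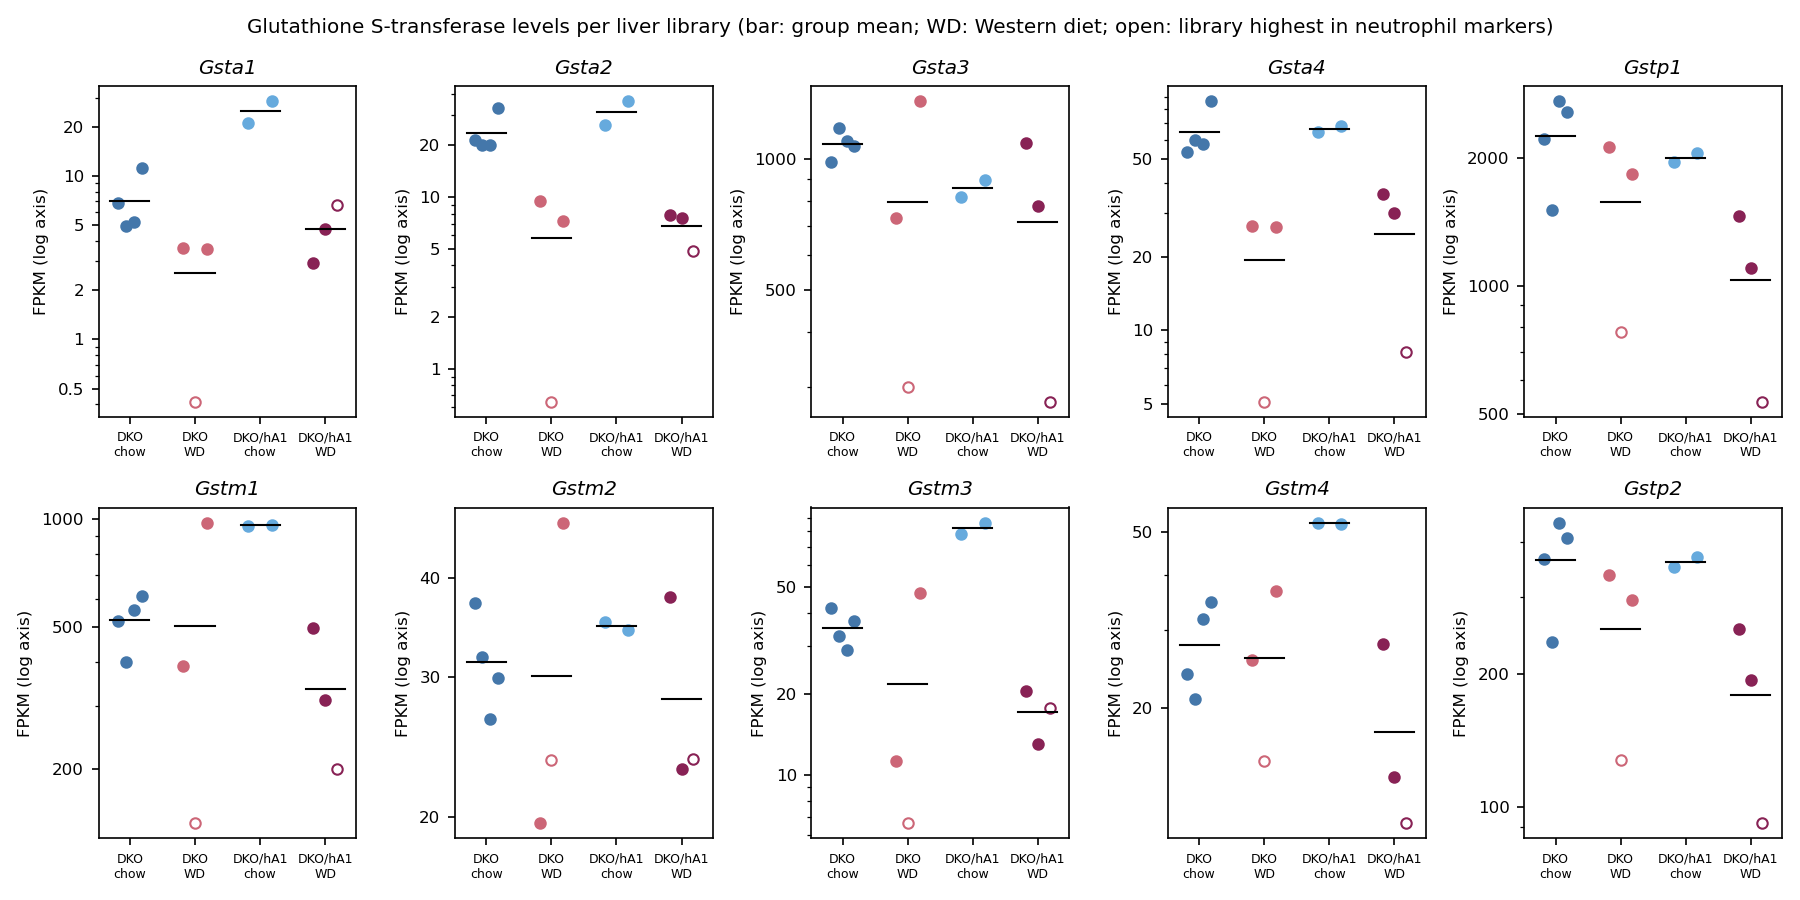
FPKM of the 10 members in each liver library (log axes), with a bar at the group mean and open points for the 2 libraries highest in neutrophil markers. Gsta2 and Gsta4 have no overlap between chow and Western diet, and all members but Gsta3, Gstp1 and Gstp2 have their highest group mean on chow with the transgene.

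The question of diet was addressed first, by averaging the Western diet minus chow differences of the 2 genotypes in a linear model of log2 FPKM over all 12 libraries (limma, adjusted over all genes tested). Of the 10 members, 3 were lower and 0 higher at an adjusted p below 0.05, where 1.2% of all tested genes were called lower and 4.05% called in either direction. At an unadjusted p below 0.05 there were 8 members, against 19.5% of all tested genes. All 10 log2 fold changes were negative, as were 51.6% of those of all tested genes, and their median was -0.998 beside -0.01 over all genes tested. The comparison within each genotype shares its libraries with this average, so it adds no separate support.

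Gsta1, an alpha class transferase induced by many foreign compounds, stood at 6.83, 4.92, 5.23 and 11.3 FPKM in DKO chow livers and at 3.63, 0.416 and 3.60 FPKM in DKO Western diet livers. With the human APOA1 gene it was at 21.1 and 28.7 FPKM on chow and at 2.92, 4.71 and 6.67 FPKM on Western diet. The 2 transgenic chow livers were the highest of the 12, and within each genotype every Western diet liver was below every chow liver. Such a separation was seen in 5.46% of tested genes in DKO and in 15% in DKO/hA1 mice. Gsta1 fell by 1.79 ± 0.33 on the log2 scale in the averaged comparison (adjusted p = 0.0158).

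Gsta2, its near-identical relative, was at 21.4, 20.1, 20.2 and 33.2 FPKM in DKO chow and at 9.47, 0.642 and 7.25 FPKM in DKO Western diet livers. Livers with the transgene had 26.2 and 36.3 FPKM on chow and 7.89, 7.54 and 4.87 FPKM on Western diet. Every chow liver was above every Western diet liver, a separation towards lower values that 0.883% of tested genes had. It fell by 2.17 ± 0.41 on the log2 scale (adjusted p = 0.0194), and with the FPKM of Gsta1 and Gsta2 summed before the log2 the change was -2.19 ± 0.42 (adjusted p = 0.0214).

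Gsta4, the alpha enzyme best known for conjugating 4-hydroxynonenal, an aldehyde formed when lipids are oxidised, was at 53.3, 59.9, 57.5 and 86.4 FPKM in DKO chow and at 26.7, 5.11 and 26.3 FPKM in DKO Western diet livers. In DKO/hA1 livers it was at 64.4 and 68.4 FPKM on chow and at 36.01, 30.2 and 8.18 FPKM on Western diet. The diets did not overlap, a separation towards lower values that 0.883% of tested genes had. The difference of -1.82 ± 0.45 missed the threshold (adjusted p = 0.0531). Without the 2 libraries highest in neutrophil markers it passed, at -1.15 (adjusted p = 0.00618).

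Gsta3, the dominant alpha gene, whose product detoxifies aflatoxin epoxide in mice, did not separate by diet. It was at 985, 1174, 1098 and 1071 FPKM in DKO chow and at 730.0, 299 and 1357 FPKM in DKO Western diet livers. In DKO/hA1 livers it was at 817 and 894 FPKM on chow and at 1089, 778 and 277 FPKM on Western diet. The lowest 2 values are those of the 2 libraries highest in neutrophil markers, and the highest value is also from a Western diet liver. The log2 fold change was -0.62 ± 0.39 (adjusted p = 0.425), and -0.05 without those 2 libraries.

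Gstm3, a mu class gene of lower abundance, was at 41.7, 32.6, 29.0 and 37.2 FPKM in DKO chow and at 11.3, 6.63 and 47.4 FPKM in DKO Western diet livers. With the transgene it was at 78.2 and 86.3 FPKM on chow and at 20.5, 13.1 and 17.8 FPKM on Western diet. DKO Western diet replicate 3 was above all 4 DKO chow livers, and the other 5 Western diet livers were below all 6 chow livers. Gstm3 fell by 1.70 ± 0.38 on the log2 scale (adjusted p = 0.0349). Without the 2 libraries highest in neutrophil markers the change was -1.45 and missed the threshold (adjusted p = 0.0794).

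Gstm1, the most abundant mu gene here and a major conjugating enzyme of mouse liver, was at 518, 399, 556 and 612 FPKM in DKO chow and at 389.6, 141 and 979.6 FPKM in DKO Western diet livers. In DKO/hA1 livers it was at 960.2 and 963 FPKM on chow and at 495, 312 and 201 FPKM on Western diet. The diets overlapped without the transgene and did not overlap with it. A separation towards lower values was seen in 5.46% of tested genes without the transgene. It was seen in 15% with it, where only 2 chow livers were compared. The interaction of Gstm1 was not called by limma (adjusted p = 0.964). The averaged log2 fold change was -1.07 ± 0.40 (adjusted p = 0.173), or -0.56 (adjusted p = 0.327) when the neutrophil-rich pair of libraries was left out.

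Gstm4 was at 23.9, 20.9, 31.7 and 34.7 FPKM in DKO chow and at 25.7, 15.1 and 36.8 FPKM in DKO Western diet livers. In DKO/hA1 livers it was at 52.6 and 52.2 FPKM on chow and at 27.9, 13.9 and 10.9 FPKM on Western diet. Again the diets overlapped only without the transgene. With it 15% of tested genes separated towards lower values, against 5.46% without. The averaged log2 fold change of Gstm4 was -0.93 ± 0.25 (adjusted p = 0.0663), or -0.64 when that pair was left out. Gstm2 was at 37.2, 31.8, 26.6 and 29.9 FPKM in DKO chow and at 19.7, 23.6 and 46.9 FPKM in DKO Western diet livers. With the transgene it was at 35.2 and 34.4 FPKM on chow and at 37.8, 23.0 and 23.7 FPKM on Western diet (-0.28 ± 0.20, adjusted p = 0.504, or -0.18 when that pair was left out). Gstm2 was the least variable member, with a highest value 2.39 times its lowest, against 69.1 times for Gsta1 and 56.5 times for Gsta2.

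The pi class genes, whose products also bind signalling kinases, were the largest part of the measured pool. Gstp1 was at 2222, 1510.5, 2724 and 2563 FPKM in DKO chow and at 2128, 777 and 1834 FPKM in DKO Western diet livers. With the transgene it was at 1956 and 2050.2 FPKM on chow and at 1460.0, 1105 and 534 FPKM on Western diet. Gstp2 followed it at 366, 237, 443 and 408 FPKM, then 337, 128 and 296 FPKM, then 352 and 370.1 FPKM, and 254, 194 and 91.7 FPKM in the same groups. Neither passed: the averaged log2 fold changes were -0.88 ± 0.30 (adjusted p = 0.134) for Gstp1 and -0.90 ± 0.30 (adjusted p = 0.122) for Gstp2. Without the 2 libraries highest in neutrophil markers they were -0.45 and -0.48.

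**Figure D3:**
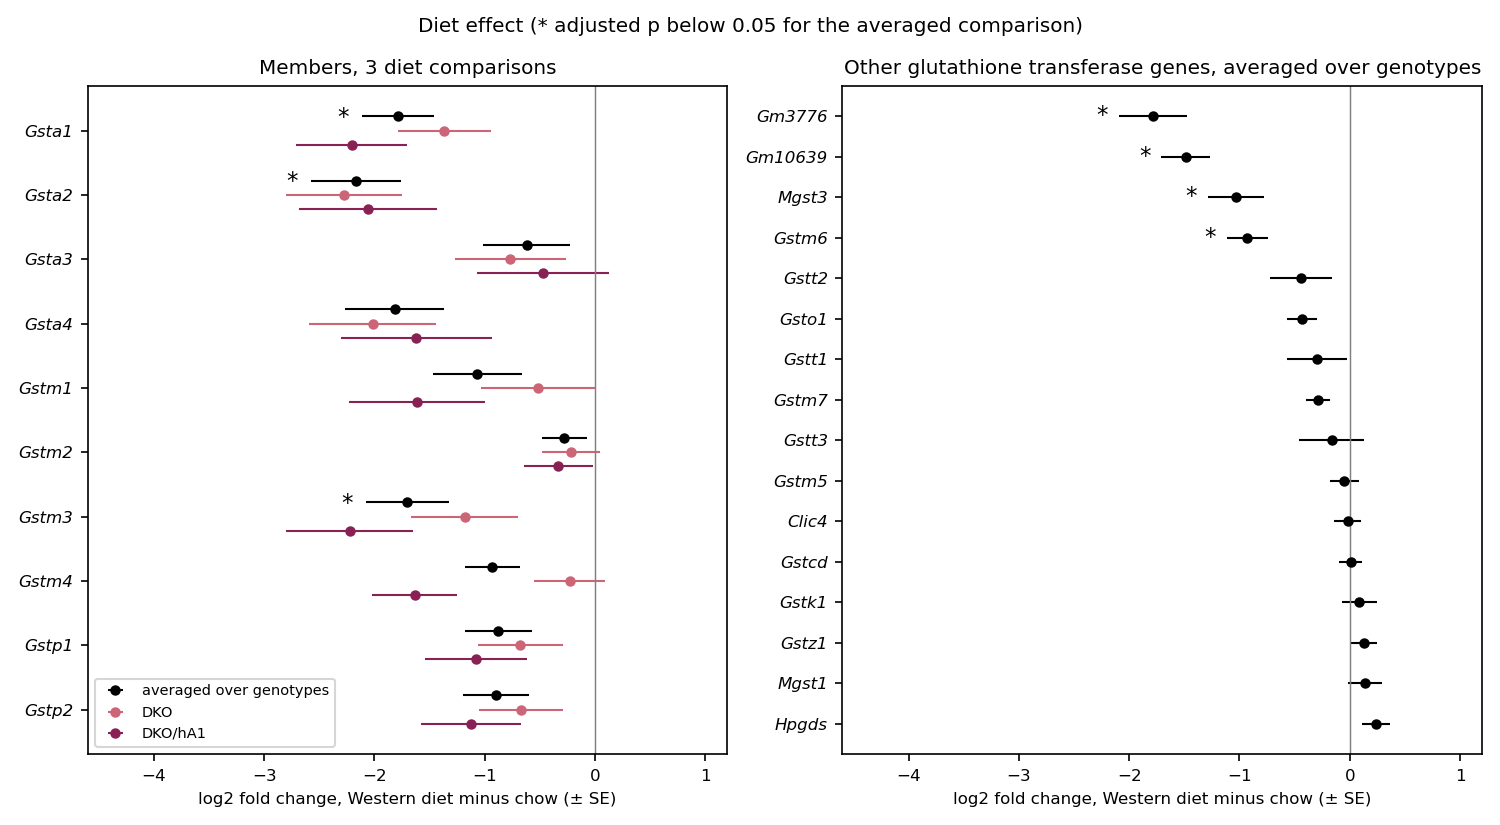
Left: log2 fold changes of Western diet minus chow (± SE) of the 10 members, averaged over genotypes and within each genotype. Right: the averaged value of the 16 tested genes of the list of other glutathione transferases and related genes. Asterisks mark an adjusted p below 0.05 in the averaged comparison: Gsta1, Gsta2 and Gstm3 on the left, and Gm3776, Gm10639, Mgst3 and Gstm6 on the right.

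The 3 calls depended on which libraries were kept. With 1 library left out, the Gstm3 call held in 3 fits, those that dropped replicate 2 or 3 of the DKO or replicate 1 of the DKO/hA1 Western diet livers, and with any of the other 9 libraries left out its adjusted p was 0.0552 to 0.170. Gsta1 and Gsta2 each lost the call in 1 of the 12 fits. Without DKO/hA1 chow replicate 2, which left 1 library in that group, no member was called: the adjusted p was 0.110 for Gsta1, 0.118 for Gsta2 and 0.170 for Gstm3, and 31 of all tested genes passed (0.269%). Without DKO Western diet replicate 3 Gstm1 and Gstm4 were called as well, and without DKO/hA1 Western diet replicate 1 Gsta4 and Gstm4 were. The labels carry a code number of unstated meaning, and each of the 9 codes occurs on 1 diet only, so code and diet cannot be told apart. With the code as a random block the adjusted p was 0.0695 for Gsta1, 0.0608 for Gsta2 and 0.0963 for Gstm3, where 0.338% of tested genes passed.

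The 2 libraries highest in neutrophil markers were the lowest 2 of the 12 for 6 members, and 1 of them was the lowest for 9 members, all but Gstm2. Their mean log2 levels of the 14 acute phase genes were 12.33 and 12.17, against 7.89 to 11.51 in the other 10. DKO Western diet replicate 3 was the third highest in both lists (acute phase mean 11.51, neutrophil sum 1358 FPKM). The members summed to 4635 FPKM in it, and by FPKM as deposited it had the highest Gsta3, Gstm1 and Gstm2 of the 12 libraries. After scaling it was below both DKO/hA1 chow livers for Gstm1 (943 against 953 and 974 FPKM). Its Gsta1 (3.60 FPKM), Gsta2 (7.25 FPKM) and Gsta4 (26.3 FPKM) were below those of every DKO chow liver. Without both libraries 3 members were called, Gsta1 (-1.63, adjusted p = 0.0130), Gsta2 (-1.67, adjusted p = 0.00192) and Gsta4, where 1.99% of all tested genes passed.

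Marker lists also differed by diet. Of the macrophage and Kupffer cell markers 7 of 11 tested were higher on Western diet and 0 lower, where 2.85% of all tested genes were called higher, with summed levels of 209 to 709.7 FPKM on chow and 955 to 2112 FPKM on Western diet. Of the acute phase genes 5 of 14 were higher, and of the neutrophil markers 1 of 10, Lcn2, which is also an acute phase gene. All 14 acute phase genes and all 10 neutrophil markers had a positive log2 fold change, with medians of 1.64 and 2.12. At an unadjusted p below 0.05 there were 10 of each list, against 19.5% of all tested genes. Of the 8 general hepatocyte markers 0 passed in limma (3 at an unadjusted p below 0.05), with sums of 19183 to 24656 FPKM on chow and 11390.4 to 24764 FPKM on Western diet. Of the 8 periportal markers 3 were lower, where 1.2% of all tested genes were called lower. Among the 8 pericentral markers 1, Glul, was higher. Of the 10 male-biased liver genes 0 passed in limma, with 2 at an unadjusted p below 0.05. Their median log2 fold change was -0.92, with 9 negative and 1 positive. The female-biased liver genes were low, with sums of 11.3 to 18.3 FPKM in DKO chow and 0.684 to 3.74 FPKM in DKO Western diet livers. In DKO/hA1 livers their sums were 8.78 to 11.2 FPKM on chow and 1.90 to 18.4 FPKM on Western diet. The part of these in the members' difference was not tested.

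**Figure D4:**
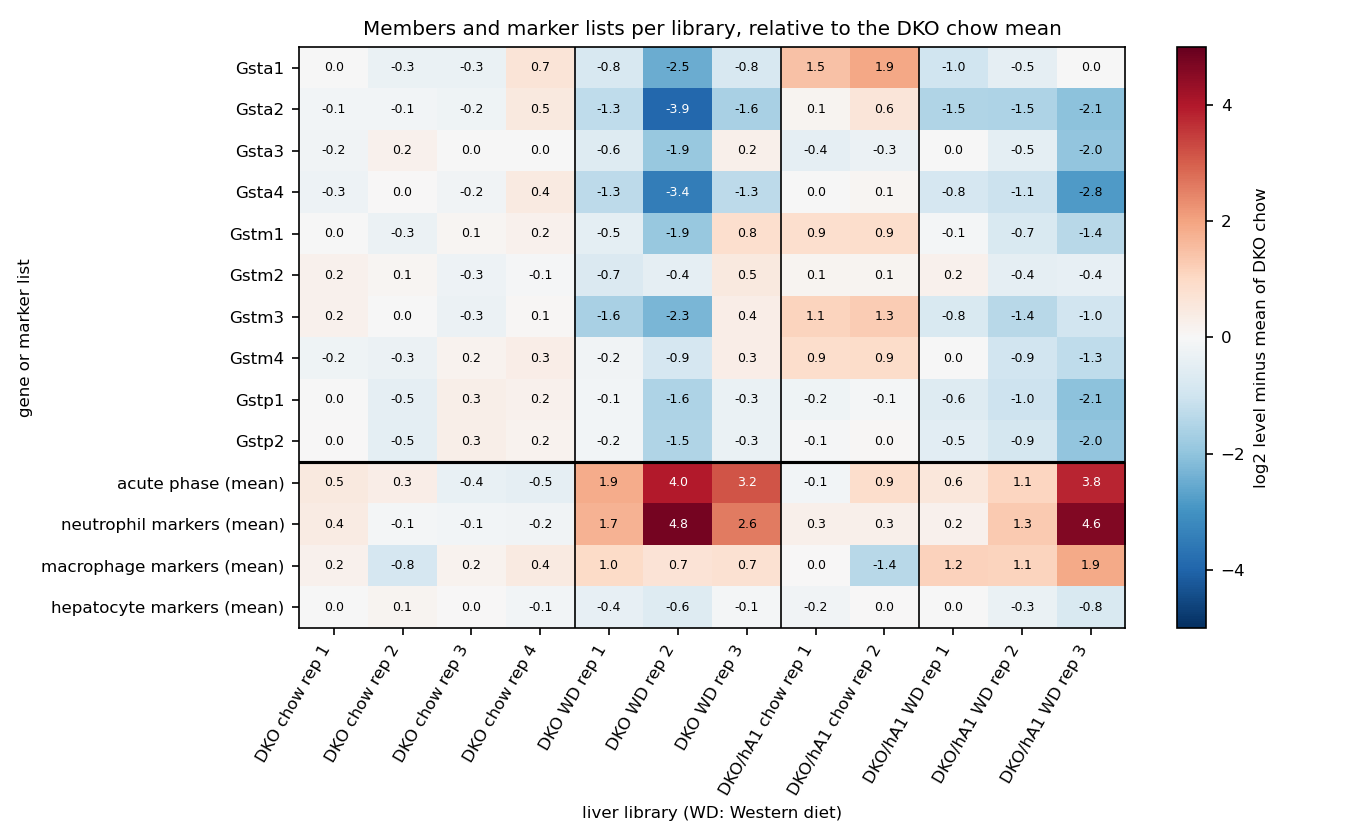
Log2 level of each member and the mean log2 level of 4 marker lists in every library, relative to the mean of the DKO chow livers (blue lower, red higher). The 2 Western diet libraries highest in neutrophil markers have the darkest red in the acute phase and neutrophil rows and blue in 10 and 9 member rows, with Gsta1 near 0 in the latter.

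Within DKO mice no member was called for diet by limma, where 0.113% of tested genes were, and 4 members had an unadjusted p below 0.05, against 11.8% of tested genes. Gsta1 (-1.36 ± 0.42, adjusted p = 0.263), Gsta2 (-2.28 ± 0.52, adjusted p = 0.158) and Gsta4 (-2.01 ± 0.58, adjusted p = 0.245) had no overlap between diets, a separation towards lower values seen in 5.46% of tested genes. These sizes rested in part on DKO Western diet replicate 2, without which they were -0.81, -1.45 and -1.30. Without both libraries highest in neutrophil markers, Gsta2 (-1.45, adjusted p = 0.0362) and Gsta4 (-1.30, adjusted p = 0.0266) were called and Gsta1 (-0.81, adjusted p = 0.399) was not, where 0.272% of tested genes passed. Gstm4 was at 27.8 ± 6.47 FPKM on chow and 25.9 ± 10.8 FPKM on Western diet. Its log2 difference of -0.23 was smaller than its SE of 0.32.

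Within DKO/hA1 mice no member was called either, where 1.42% of tested genes were, but 8 members had an unadjusted p below 0.05, against 13.5% of tested genes. All members except Gsta3 and Gstm2 had every Western diet liver below both chow livers, as 15% of tested genes did. The smallest adjusted p-values were 0.0612 for Gsta1 (-2.21 ± 0.50), 0.0665 for Gstm4 (-1.63 ± 0.38) and 0.0945 for Gstm3 (-2.22 ± 0.58). Without both libraries highest in neutrophil markers, Gsta1 (-2.45, adjusted p = 0.0221) and Gsta2 (-1.88, adjusted p = 0.0216) were called, where 0.483% of tested genes passed, and Gstm4 (-1.38) and Gstm3 (-2.27) were not. The chow and Western diet livers of this genotype also had no overlap in a clock index, the mean log2 level of 4 genes that peak with Arntl minus that of 7 genes that peak with Dbp: -0.51 and 0.23 on chow against -2.97 to -1.43 on Western diet. This index moves with the hour of collection, and its part in the difference was not tested.

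The interaction asked whether the diet effect differed between genotypes. No member was called by limma, where 0.0173% of tested genes were, and 1 had an unadjusted p below 0.05, against 4.94% of tested genes. That gene was Gstm4, with an interaction of -1.41 ± 0.50 on the log2 scale (adjusted p = 0.964). The next largest were Gstm1 (-1.09 ± 0.81) and Gstm3 (-1.04 ± 0.75), each within 2 SE of 0, so a different diet effect with and without human APOA1 was not shown for any member.

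The effect of the human APOA1 gene itself was compared on each diet and averaged over diets. No member passed in limma in any of the 3: averaged over diets 0.104% of tested genes were called, on chow 0.0779%, and on Western diet 0%. At an unadjusted p below 0.05 there were 1, 2 and 0 members, against 8%, 7.44% and 5.89% of tested genes. Averaged over diets the largest difference was that of Gsta1, 1.29 ± 0.33 higher with the transgene on the log2 scale (adjusted p = 0.310).

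On chow both DKO/hA1 livers were above all 4 DKO livers for Gsta1, Gstm1, Gstm3 and Gstm4, as was the case for 10.6% of tested genes. Gsta1 was at 24.9 ± 5.37 FPKM with the transgene and 7.06 ± 2.92 FPKM without it (1.71 ± 0.47, adjusted p = 0.382). Gstm3 was at 82.3 ± 5.74 and 35.1 ± 5.51 FPKM (1.19 ± 0.55, adjusted p = 0.665). Gstm4 was at 52.4 ± 0.279 and 27.8 ± 6.47 FPKM (0.89 ± 0.36, adjusted p = 0.612), and Gstm1 at 962 ± 2.06 and 521 ± 90.3 FPKM (0.87 ± 0.59, adjusted p = 0.803). Gsta3 was the reverse, with both DKO/hA1 livers (856 ± 54.4 FPKM) below all 4 DKO livers (1082 ± 78.0 FPKM), a separation that 11% of tested genes had (log2 difference -0.37 ± 0.57). The DKO/hA1 chow group has only 2 livers, and both carry the same code number, which 1 DKO chow liver also carries. That DKO chow liver, replicate 3, was at 5.23 FPKM for Gsta1, 29.0 for Gstm3, 31.7 for Gstm4 and 556 for Gstm1, below both DKO/hA1 chow livers in each.

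Other measures differed on chow as well. The clock index was -3.26 and -3.32 in DKO chow replicates 1 and 2 and 0.32 and -0.05 in replicates 3 and 4, the pair nearer to the DKO/hA1 chow livers (-0.51 and 0.23). Replicates 3 and 4 were also below both DKO/hA1 livers for Gsta1, Gstm1, Gstm3 and Gstm4. All 7 genes that peak with Dbp and all 11 macrophage and Kupffer cell markers had a negative log2 difference with the transgene on chow, with medians of -0.94 and -0.70, and 0 of them passed in limma (1 of each list at an unadjusted p below 0.05). The macrophage markers summed to 286 to 709.7 FPKM in DKO and 209 and 564 FPKM in DKO/hA1 chow livers. The part of these in the members' difference was not tested.

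Ratios between members of the same class were compared next, since a ratio within a library does not depend on scaling between libraries. All 13 within-class pairs were tested for diet and for genotype by exact two-sided permutation within the other factor, with p-values adjusted over the 13 ratios. The smallest p that this allows is 0.00286 for diet and 0.00333 for genotype.

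Gsta3 over Gsta4 was 12.4 to 19.6 in the 6 chow livers and 25.8 to 58.5 in the 6 Western diet livers. The groups did not overlap, and the log2 ratio was 1.28 higher on Western diet (exact permutation p = 0.00286, adjusted p = 0.0124). Gstm2 over Gstm3 was 0.398 to 0.974 on chow and 0.990 to 3.56 on Western diet, with the closest values in DKO livers (log2 difference 1.49, exact permutation p = 0.00286, adjusted p = 0.0124). Gsta2 over Gsta3 was 1.88 lower on the log2 scale with the same p, and its groups overlapped. The other 10 ratios did not pass for diet. Without the 2 libraries highest in neutrophil markers the 3 log2 differences were 1.13, 1.32 and -1.73 (exact permutation p = 0.0111 for each, as low as 90 relabellings can give).

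**Figure D5:**
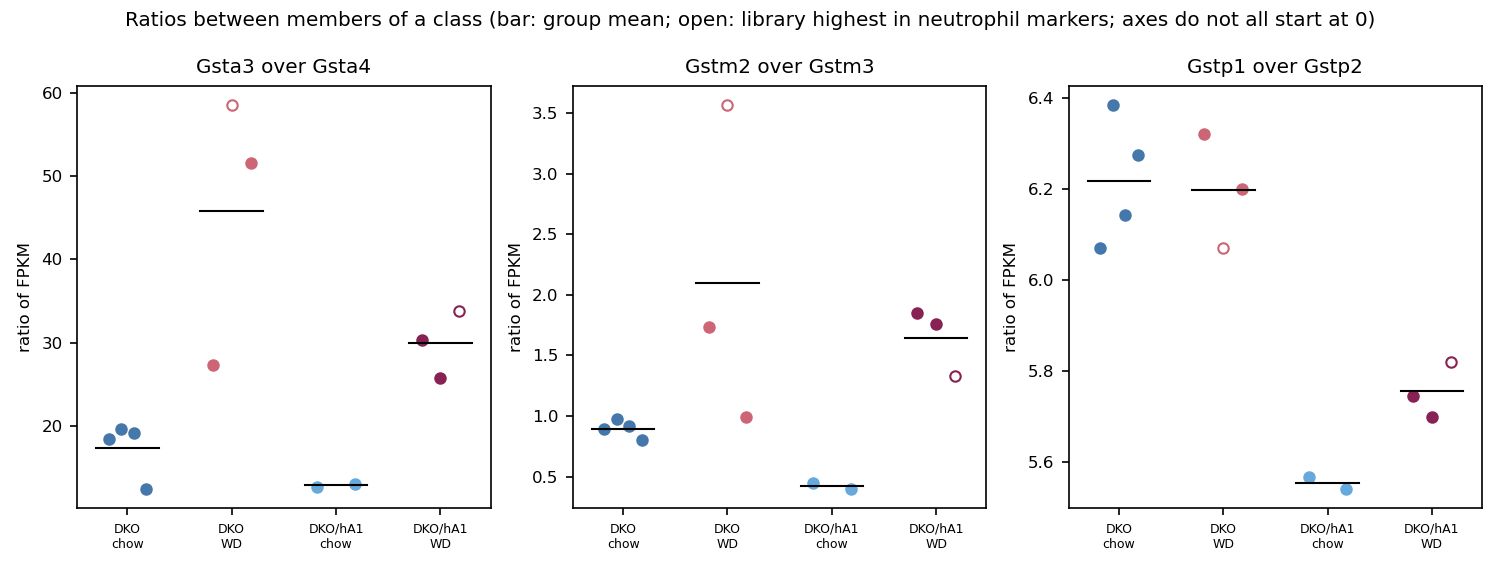
Ratio of FPKM between 2 members of a class in each library, with a bar at the group mean and open points for the 2 libraries highest in neutrophil markers. Gsta3 over Gsta4 and Gstm2 over Gstm3 do not overlap between diets, and Gstp1 over Gstp2 does not overlap between genotypes (axes do not start at 0).

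The pi pair gave the one ratio that passed for genotype. Gstp1 over Gstp2 was 6.07, 6.39, 6.14 and 6.27 in DKO chow and 6.32, 6.07 and 6.20 in DKO Western diet livers. With the human APOA1 gene it was 5.57 and 5.54 on chow and 5.75, 5.70 and 5.82 on Western diet. All 7 DKO livers were above all 5 DKO/hA1 livers, although the levels of both genes varied about 5-fold across libraries. The log2 difference was small, -0.13 (exact permutation p = 0.00333, adjusted p = 0.0433), and it was -0.14 to -0.13 with each library left out in turn. Among livers that share a code number the order was the same: 6.14 against 5.57 and 5.54 under one code, and 6.32 against 5.75 under another. Whether the difference lies in transcript levels or in how fragments of these near-identical transcripts were divided was not tested.

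Across the 12 libraries the log2 levels of Gstp1 and Gstp2 had a Pearson r of 0.995. Other within-class pairs had r of 0.32 to 0.95 (alpha) and 0.58 to 0.91 (mu), and pairs between classes 0.32 to 0.88. These correlations share the same 12 libraries and the same scaling, and near-identical genes share fragments, so they are given as a description.

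The genes outside the transferase lists whose log2 levels followed a member most closely were also described by Pearson r over the 12 libraries. For Gsta2 the first was Cyp3a11, the main drug-metabolising cytochrome P450 of the Cyp3a family in mouse liver (r = 0.963), and for Gsta4 it was Ivd, a leucine-degrading dehydrogenase (r = 0.984), followed by Cyp3a11 (r = 0.968). Gsta3 was followed by the carboxylesterase gene Ces1d (r = 0.958) and the cytochrome P450 gene Cyp2c29 (r = 0.955). The nearest gene was Fbxw7 for Gsta1 (r = 0.941), Kcmf1 for Gstm1 (r = 0.951), Ugt1a5 for Gstm2 (r = 0.971), Pir for Gstm3 (r = 0.900), Itfg2 for Gstm4 (r = 0.931), and Cisd1, an iron-sulfur protein of the outer mitochondrial membrane, for Gstp1 (r = 0.948) and Gstp2 (r = 0.952).

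The other genes listed with the glutathione transferases did not all move in the same direction. That list also held Clic4 and Clic5, which are chloride intracellular channel genes. Of 22 listed, 16 were tested, and for diet averaged over genotypes 0 were higher and 4 lower. Of all tested genes 1.2% were called lower in that comparison. Of the 16, 11 had a negative and 5 a positive log2 fold change, with a median of -0.23. The 4 were the alpha class gene models Gm3776 (-1.79 ± 0.31, adjusted p = 0.0123) and Gm10639 (-1.49 ± 0.22, adjusted p = 0.00757), whose transcripts overlap in sequence with Gsta1 and Gsta2, the mu gene Gstm6 (-0.93 ± 0.18, adjusted p = 0.0194) and the microsomal Mgst3 (-1.03 ± 0.25, adjusted p = 0.0494). The mu genes Gstm5 (-0.05) and Gstm7 (-0.29, adjusted p = 0.177) were not called. Mgst1, an abundant microsomal transferase, was at 1755 to 3162 FPKM with a log2 fold change of 0.14. The kappa gene Gstk1 (0.08), the zeta gene Gstz1 (0.13), the theta gene Gstt1 (-0.30) and the omega gene Gsto1 (-0.43) were not called.

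Genes that supply or use glutathione mostly did not pass: of 23 tested, 1 was higher and 1 lower, where 4.05% of all tested genes were called. At an unadjusted p below 0.05 there were 9 of the 23, against 19.5% of all tested genes, and 14 of the 23 were negative and 9 positive. Cth, which makes the cysteine that glutathione needs, fell by 0.82 on the log2 scale (adjusted p = 0.0150), and Ggt6, of the gamma-glutamyltransferase family, rose by 0.71 (adjusted p = 0.0386). Gclc, the catalytic subunit of the rate-limiting ligase, had -0.97 ± 0.35 (adjusted p = 0.152), and Gclm, its modifier subunit, had -0.11.

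Among 24 tested NRF2 targets outside the transferases 0 were higher and 1 lower, Ugdh (-0.84 ± 0.17, adjusted p = 0.0206), which makes UDP-glucuronic acid. Of all tested genes 1.2% were called lower in this comparison and 4.05% in either direction. At an unadjusted p below 0.05 there were 8 of the 24 targets, against 19.5% of all tested genes. Of the 24, 15 had a negative and 9 a positive log2 fold change. Nqo1, a quinone reductase often used to read NRF2 activity, had -0.19, and Hmox1, which breaks down haem, had 1.06 ± 0.27 (adjusted p = 0.0531). Of 18 regulators and receptors 0 passed in limma, with 2 at an unadjusted p below 0.05, and Nfe2l2, which encodes NRF2, had 0.16 (adjusted p = 0.394). Of 17 partner enzymes of drug metabolism 1 passed, Cyp3a11, which fell by 4.06 ± 0.80 on the log2 scale (adjusted p = 0.0222), with 921 to 1802 FPKM in chow livers and no more than 322 FPKM in any Western diet liver. Cyp1a2, a target of the aryl hydrocarbon receptor, had -0.33 and the ethanol-oxidising Cyp2e1 had 0.44, and neither was called. Within DKO/hA1 mice the genes of the lists of other transferases, NRF2 targets, regulators and partner enzymes that passed were Gm3776 (-2.25 ± 0.47, adjusted p = 0.0485), Gm10639 (-1.62 ± 0.34, adjusted p = 0.0457) and Ugdh (-1.36 ± 0.26, adjusted p = 0.0315), and within DKO mice none passed.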

How the data were processed

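RNA sequencing of 12 livers was analysed from 1 table of the whole series. The submitters' processing notes name build mm10 and, for the authors' processing, Bowtie 0.12.8, TopHat 1.3.2, SAMtools 0.1.19 and Cuffdiff. The table is named as counts, but the deposited values are FPKM: they have decimals and sum to 379689 to 578927 per library. The annotation, read length and strand handling are not given in the sources used here.

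Libraries were scaled by trimmed means of log ratios without weights (trims 0.3 and 0.05, factors 0.929 to 1.039), and 1 was added before the log2, so fold changes are on the log2(FPKM + 1) scale, which understates those of low genes. Small RNA genes (776) and 21 genes listed at 0 throughout a group yet at 1 FPKM or more throughout another were left out. Genes at 1 FPKM or more in at least 2 libraries (11546) were fitted with limma 3.58.1 (R 4.3.3; 4 group means over 12 libraries, trended robust variance) for 7 contrasts, tested two-sided, and called at a Benjamini-Hochberg adjusted p below 0.05. The fit was tested on simulated data. Ratios were added after seeing the data. Named are all 10 members, called genes of the pathway lists, genes at the head of each such list and the 3 genes most like a member outside the transferase lists, of which some are printed; Gstt1, Gstk1, Gstz1, Gsto1 and Mgst1, 1 for each further class, were chosen after their values were seen. Alternatives covered the value added, filter, scaling, variance model, blocks, libraries left out and summed pairs. Members and lists were chosen with earlier results of these data known.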

Additional observations from a re-analysis of the deposited data

Results flagged for a closer look

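In DKO chow livers, replicate 4 stood apart from the other 3 for Gsta2, at 33.2 FPKM against 20.1 to 21.4 FPKM; its gap to the nearest was 0.899 of the group's range. The same library was apart in the ratio of Gsta3 to Gsta4, at 12.4 against 18.5 to 19.6 (gap 0.844 of the range). Chance flags about 1 in 20 groups, and groups of 2 or 3 were not examined in this way.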

How the results depend on the processing

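Over 24 alternatives, the diet call (averaged over genotypes) held under 22 for Gsta1 and for Gsta2 and under 12 for Gstm3. The number of members called, 3 in the report, was 0 with the code as a random block (0.338% of all tested genes called) and 0 to 5 with each library left out in turn (0.269 to 4.74%). Within DKO it was 0 to 1 with a library left out (0.061 to 0.629%) and 2 when the 2 libraries highest in neutrophil markers were dropped (0.272%). Within DKO/hA1 it was 0 to 2 with a library left out (0.0521 to 1.65%), 2 with 5 added before the log2 (1.67%), 1 with only the groups compared in the fit (0.117%), and 2 without those 2 libraries (0.483%). For genotype on chow it was 1 with only the groups compared (0.335%). The direction turned for 4 members, none of them called. Within DKO, without the 2 libraries, Gstm1 was at 0.181 and Gstm4 at 0.0905. With each library left out, Gstm1 ran from -1.20 to 0.18, Gstm4 from -0.51 to 0.0894 and Gstm2 from -0.58 to 0.0291. Within DKO/hA1, Gsta3 was at 0.0925 without the 2 libraries and ran from -0.87 to 0.0919. The cause was not tested. With each library left out, 31 to 546 genes in all passed for diet, against 468.

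With the replicate number as a block 2 members were called for diet, Gsta1 (-1.75) and Gsta2 (-2.11), and Gstm3 (-1.80) had an adjusted p of 0.0512. Same-numbered libraries shared only a number: correlations of their deviations from the group means were -0.28 to 0.45 (median -0.02). Read numbers are not known, so no counting error stands beside any value, and groups of 2 to 4 livers limit all comparisons.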
